A study of Mus musculus with 26 samples.

Results

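The cholesterol and fatty acid synthesis genes are 33 genes chosen by name, of 23168 gene symbols with a value in all 26 libraries. They comprise 16 genes of sterol synthesis, 6 of sterol sensing and transport, 9 of fatty acid synthesis and 2 of sterol efflux. RNA was measured in sorted thymocytes of C57BL/6 mice aged 6 to 8 weeks, and the labels name no allele or transgene for any group. DN1eP cells (4 libraries) are thymic precursors sorted for CD44+, CXCR3+, CD27+, CD5+ and CD24low and against lineage (Lin-), CD25- and Ly108-, without the Valpha14Jalpha18 receptor on the surface. DN1eP-NKT cells (4 libraries) carry that receptor on the surface and came from DN1eP cells kept for 10 days on OP9/Dll-1 stroma, a bone marrow stromal line that displays a Notch ligand, with IL-2 and IL-7 at 5 ng/ml each and 10% fetal calf serum. Thymic NKT cells bound CD1d dimers loaded with alphaGalCer and carried TCRbeta, and were split into stage 1 (CD44-, NK1.1-, 5 libraries), stage 2 (CD44+, NK1.1-, 7 libraries) and stage 3 (CD44+, NK1.1+, 6 libraries). The culture, its serum and its stroma therefore belong to DN1eP-NKT alone and cannot be told apart from the change of cell identity.

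Cells make cholesterol from acetyl-CoA through mevalonate, farnesyl diphosphate, squalene and lanosterol. When membrane sterol is low, SCAP carries the transcription factors SREBP-1 and SREBP-2 (from Srebf1 and Srebf2) to the Golgi, where proteolysis frees their active domains, whereas INSIG proteins hold SCAP in the endoplasmic reticulum when sterol is plentiful. The transporters ABCA1 and ABCG1 export cholesterol and are induced by the oxysterol receptors LXR. Dividing lymphocytes draw on the same synthesis for new membrane.

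The libraries fell into 2 sets of 13 that do not follow cell stage. In set A the median FPKM (fragment counts scaled to transcript length and library size) of genes at 1 FPKM or more was 12.97 to 13.85, and in set B it was 7.58 to 9.811. Set A holds all DN1eP-NKT libraries with stage 1 libraries 1 and 2, stage 2 libraries 1 to 4 and stage 3 libraries 1 to 3. Set B holds all DN1eP libraries with stage 1 libraries 3 to 5, stage 2 libraries 5 to 7 and stage 3 libraries 4 to 6. The labels name 2 library kits without saying which library had which, so the cultured group and the precursor group were each compared with the 9 thymic libraries of their own set. Library 1 of DN1eP-NKT correlated with libraries 2 to 4 at 0.954 to 0.963, and these with each other at 0.969 to 0.978, over log2(FPKM + 1) of all genes. Library 1 of DN1eP correlated with libraries 2 to 4 at 0.926 to 0.94, and these with each other at 0.956 to 0.96. T and NKT cell markers summed to between 1640 and 6370 FPKM in every library. In DN1eP-NKT, however, 7 of these 10 markers were lower than in thymic NKT cells of set A and 1 was higher (limma). Over all genes 12.1% were lower and 16.4% higher. Slamf6, a receptor of NKT development, was at 0 to 0.329 FPKM against 2.45 to 89.3. It encodes Ly108, and the DN1eP cells put into culture had been sorted as Ly108-. Zbtb16, which encodes the NKT lineage factor PLZF, was at 4.51 to 6.90 FPKM against 12.8 to 113. Cd3e, a subunit of the T cell receptor complex, was not called (-0.36 ± 0.14). Stage 2 library 6 and stage 3 library 5 also held B cell markers (142 and 42.6 FPKM summed) and erythroid markers (199 and 827 FPKM summed). The labels do not say whether replicates came from separate animals, so p-values reflect no more than the spread among the deposited libraries, which may be technical. In these bulk samples fewer cells of a type and less RNA per cell cannot be told apart.

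Promoters of 26 of the 33 genes were matched in RefSeq by symbol (35 promoters, build GRCm38.p6, 250 bases before to 50 after the start), and Scd1, Scd2, Abcg1, Stard4, Sqle, Fdps and Fdft1 were not. The sterol regulatory element core TCACNCCAC, read on both strands, occurred in 1 of these 35 promoters (2.86%) and in 1.24% of all 32851 promoters. That promoter belongs to Hmgcs1. A looser word, the same core with an A before it and a C in place of the N, allowing at most 1 mismatch, was added after seeing this. It occurred in 3 of the 35 promoters (8.57%), those of Hmgcs1, Srebf2 and Nsdhl, and in 1.95% of all promoters, and in Hmgcs1 it overlaps the core. CCAAT, which NF-Y binds, occurred in 62.9% of the 35 promoters and in 37.4% of all. GGGCGG, a GC box bound by Sp1, occurred in 71.4% of the 35 and in 35.7% of all. Several of the 35 belong to the same gene, and a match is a description of letters in this window. Shown first are the 3 promoters with the looser word, then those of Idi1, Cyp51 and Insig1, chosen after their values were seen because these genes were among the largest rises in DN1eP-NKT cells. Capitals mark the looser word, the core and CCAAT or its reverse complement ATTGG, 5' to 3' along the gene.
Hmgcs1, chr13:119690101-119690400, plus strand: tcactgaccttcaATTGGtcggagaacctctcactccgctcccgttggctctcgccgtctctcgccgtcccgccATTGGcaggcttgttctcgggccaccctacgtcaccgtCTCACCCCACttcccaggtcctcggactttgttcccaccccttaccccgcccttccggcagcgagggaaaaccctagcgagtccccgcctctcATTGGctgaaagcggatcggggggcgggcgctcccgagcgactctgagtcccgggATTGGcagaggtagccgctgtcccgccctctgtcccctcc
Srebf2, chr15:82147019-82147318, plus strand: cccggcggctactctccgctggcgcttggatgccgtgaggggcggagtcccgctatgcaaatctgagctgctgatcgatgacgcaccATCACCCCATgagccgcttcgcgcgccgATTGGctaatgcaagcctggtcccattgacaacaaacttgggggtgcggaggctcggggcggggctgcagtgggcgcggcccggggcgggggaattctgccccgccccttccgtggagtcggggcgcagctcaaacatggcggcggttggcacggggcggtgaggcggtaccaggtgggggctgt
Nsdhl, chrX:72918271-72918570, plus strand: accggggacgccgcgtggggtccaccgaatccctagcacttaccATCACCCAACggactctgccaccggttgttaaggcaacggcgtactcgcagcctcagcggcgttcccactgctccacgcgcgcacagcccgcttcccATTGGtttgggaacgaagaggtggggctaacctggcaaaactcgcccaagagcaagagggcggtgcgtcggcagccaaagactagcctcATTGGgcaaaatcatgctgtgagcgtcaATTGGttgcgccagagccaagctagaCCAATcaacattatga
Idi1, chr13:8885356-8885655, plus strand: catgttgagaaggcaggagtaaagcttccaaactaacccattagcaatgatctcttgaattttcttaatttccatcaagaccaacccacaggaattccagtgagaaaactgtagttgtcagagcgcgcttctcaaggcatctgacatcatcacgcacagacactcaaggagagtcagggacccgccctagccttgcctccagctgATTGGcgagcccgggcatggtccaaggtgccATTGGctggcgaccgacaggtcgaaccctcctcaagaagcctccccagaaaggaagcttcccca
Cyp51, chr5:4104648-4104947, minus strand: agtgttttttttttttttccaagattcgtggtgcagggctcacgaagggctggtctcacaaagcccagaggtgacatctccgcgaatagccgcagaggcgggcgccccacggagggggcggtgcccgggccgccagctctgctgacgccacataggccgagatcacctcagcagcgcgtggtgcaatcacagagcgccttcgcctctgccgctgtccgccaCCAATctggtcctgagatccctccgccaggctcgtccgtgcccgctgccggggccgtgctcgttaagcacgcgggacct
Insig1, chr5:28071162-28071461, plus strand: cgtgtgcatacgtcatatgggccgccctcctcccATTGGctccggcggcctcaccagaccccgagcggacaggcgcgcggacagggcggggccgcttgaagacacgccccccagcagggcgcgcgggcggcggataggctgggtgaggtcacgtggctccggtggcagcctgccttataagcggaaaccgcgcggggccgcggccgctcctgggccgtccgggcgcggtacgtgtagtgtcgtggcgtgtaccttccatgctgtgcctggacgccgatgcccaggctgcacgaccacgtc

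Genes of cholesterol synthesis were higher in DN1eP-NKT cells than in thymic NKT cells of the same library set. With limma and Benjamini-Hochberg adjustment over 11036 genes, 20 of 32 tested members were higher at an adjusted p below 0.05 than the mean of the 3 stages and 3 were lower, against 16.4% of all genes higher and 12.1% lower. Me1, the cytosolic malic enzyme that supplies NADPH, was too low to be tested in either set. The 32 members passed the filter (1 FPKM in 4 libraries) in the thymic libraries alone. In the sterol synthesis class 13 of 16 were higher and none lower, with a median difference of 1.72 on the log2(FPKM + 1) scale beside 0.02 over all genes. Under quantile normalization the split over all genes turned to 1630 higher and 1832 lower, while 19 members were higher and 3 lower. For 17 members, 12 of them in sterol synthesis, every DN1eP-NKT library lay above every thymic library, as for 6.53% of all genes, and for 2 every DN1eP-NKT library lay below, as for 4.87%.

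**Figure D1:**
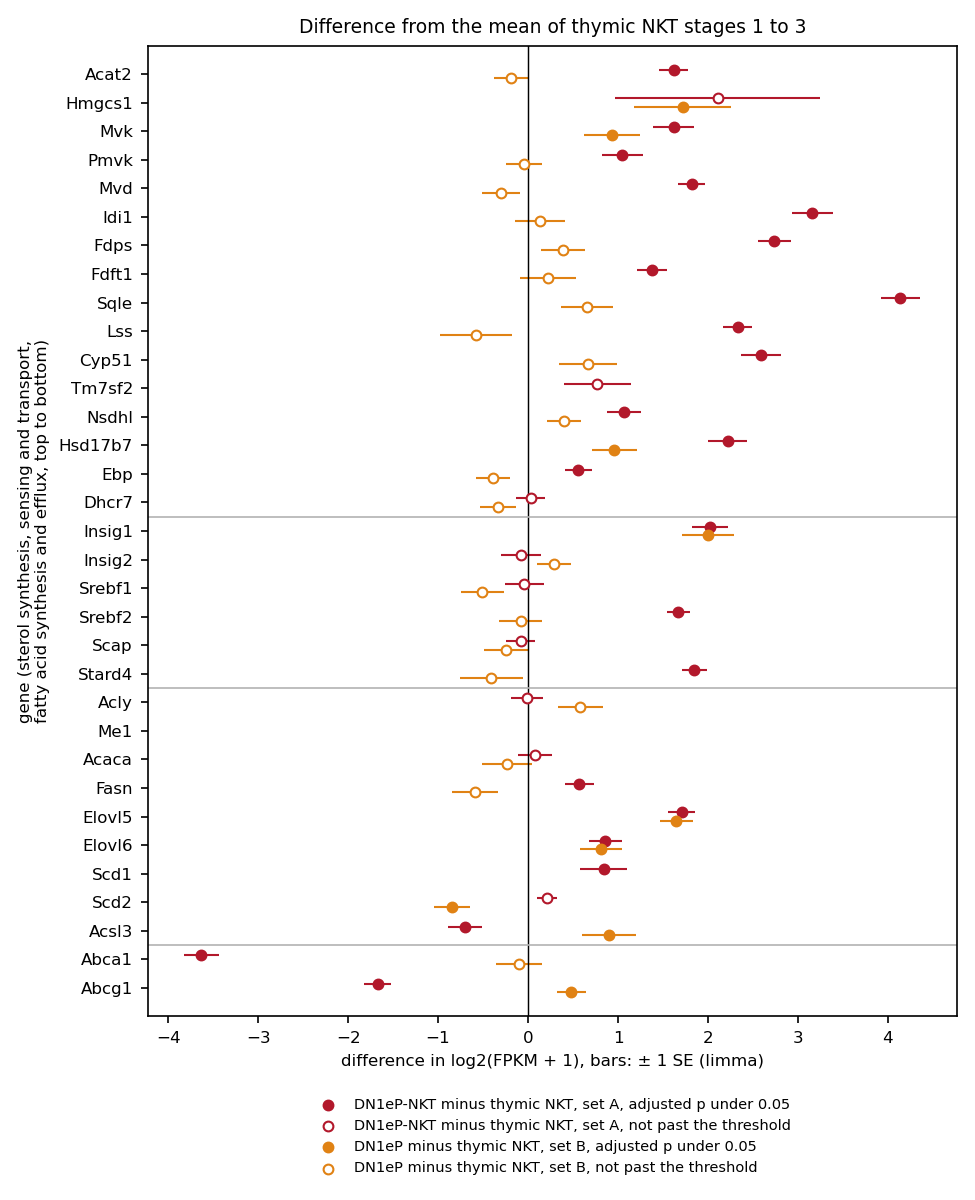
Difference in log2(FPKM + 1) from the mean of thymic stages 1 to 3 for each gene, in set A for DN1eP-NKT (red) and in set B for DN1eP (orange). Bars are 1 SE on each side and filled points have an adjusted p below 0.05; Sqle at 4.14 and Abca1 at -3.63 lie farthest from 0 in set A, while in set B Insig1 at 2.0 and Elovl5 at 1.65 do so among genes without the table problem of Hmgcs1.

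Sqle (mm9 chr15:59146647-59162748), squalene epoxidase at the first oxygen-requiring step, had the largest difference in the class. It was at 24.3, 45.7, 50.9 and 46.6 FPKM in DN1eP-NKT libraries 1 to 4, and at 0.631 to 3.24 FPKM (median 1.08) in the 9 thymic libraries. The groups did not overlap, although library 1 was the lowest of the 4. The difference was 4.14 ± 0.22 on the log2(FPKM + 1) scale (SE, 17.6-fold in FPKM + 1, adjusted p = 2.69e-09). Idi1 (mm9 chr13:8884852-8891642), the isopentenyl diphosphate isomerase, was at 51.3, 81.9, 74.1 and 70.5 FPKM against 3.49 to 12.0 (median 6.19), a difference of 3.16 ± 0.23 (adjusted p = 7.44e-08). Fdps (mm9 chr3:88897510-88905889), which makes farnesyl diphosphate, was at 87.9, 174, 184 and 187 FPKM against 13.5 to 30.5 (median 25.2), a difference of 2.74 ± 0.18 (adjusted p = 1.65e-08). For both genes library 1 was again the lowest and still above every thymic library. Cyp51 (mm9 chr5:4080674-4104697), lanosterol 14-alpha-demethylase, was at 27.0, 55.2, 51.9 and 51.1 FPKM against 3.30 to 10.1 (median 7.48), a difference of 2.59 ± 0.22. Lss, lanosterol synthase, was at 21, 30.4, 25.4 and 24.7 FPKM against 2.25 to 5.28, a difference of 2.33 ± 0.16. Hsd17b7, the 3-ketosteroid reductase of the pathway, was at 5.28, 8.81, 10.2 and 13.9 FPKM against 0.686 to 1.74, a difference of 2.22 ± 0.22. All 3 pairs of groups lay apart.

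The other called sterol genes differed by less. Mvd, Mvk and Pmvk, which turn mevalonate into isopentenyl diphosphate, were higher by 1.82 ± 0.15, 1.62 ± 0.23 and 1.05 ± 0.23. Acat2, the acetoacetyl-CoA thiolase at the start of the route, and Fdft1, squalene synthase, were higher by 1.62 ± 0.16 and 1.38 ± 0.17. Nsdhl, a C4-demethylation enzyme whose promoter is among those shown, was higher by 1.07 ± 0.19. Ebp, the sterol isomerase, was higher by 0.56 ± 0.15 (adjusted p = 0.00929), a call that ended without DN1eP-NKT library 2 (0.46, adjusted p = 0.0522). Dhcr7, the last enzyme of the branch through 7-dehydrocholesterol, was not called (0.03 ± 0.16), with 15.7 to 26.6 FPKM in DN1eP-NKT and 14.9 to 32.7 in thymic libraries. Tm7sf2, a sterol C14 reductase, was not called (0.77 ± 0.37), with 0 in DN1eP-NKT library 4 and 2.54 to 3.09 FPKM in the other 3. Hmgcs1, the HMG-CoA synthase, cannot be read in full: it sits on 2 near-identical rows of equal value, and it is listed at 0 in all 9 libraries that share 1 version of the gene table and in none of the other 17. Where it is listed above 0, its summed level was 37.0 to 57.8 FPKM in 3 DN1eP-NKT libraries and 4.11 to 9.75 in 7 thymic libraries of set A, and the test over all libraries did not call it (2.11 ± 1.14, adjusted p = 0.214).

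**Figure D2:**
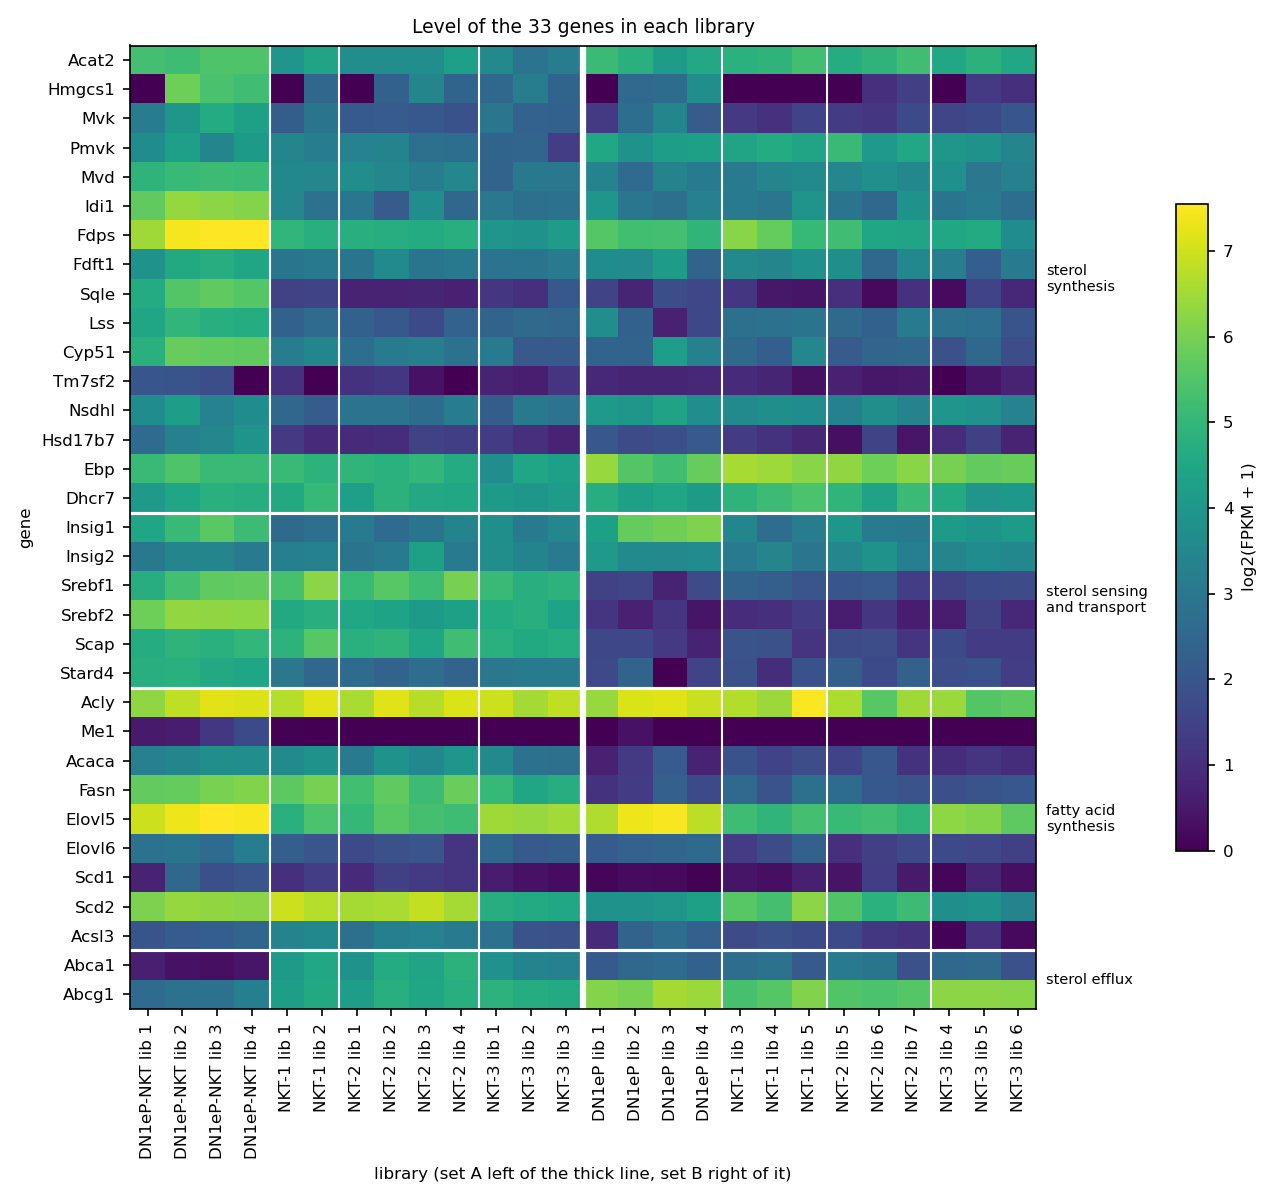
Level of each of the 33 genes (rows, grouped by class) in each library (columns), as log2(FPKM + 1) on the colour scale. The 4 DN1eP-NKT columns are brightest in most sterol synthesis rows and darkest for Abca1 and Abcg1 within set A, and the rows of Srebf1, Srebf2, Scap and Fasn change between the sets.

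Among the sensing and transport genes, 3 of 6 were higher in DN1eP-NKT cells. Insig1 (mm9 chr5:28397952-28405202), itself an SREBP target, was at 21.1, 33.2, 48.0 and 35.1 FPKM against 5.07 to 12.6 (median 7.7) in thymic libraries, a difference of 2.02 ± 0.20 (adjusted p = 1.9e-06). Srebf2 (mm9 chr15:81977699-82035390), which encodes the SREBP chiefly driving sterol synthesis, was at 58.1, 79.9, 78.2 and 75.9 FPKM against 16.3 to 26.4 (median 22.2), a difference of 1.67 ± 0.13 (adjusted p = 1.08e-07). Stard4, a cytosolic sterol carrier, was at 25.9, 27.0, 22.4 and 21 FPKM against 4.25 to 7.88, a difference of 1.85 ± 0.14 (adjusted p = 9.25e-08). None of these 3 overlapped between the groups. Srebf1 (-0.04 ± 0.22), Scap (-0.08 ± 0.16) and Insig2 (-0.08 ± 0.22) were not called, so the 2 SREBP genes and the 2 Insig genes gave different results, a contrast within each pair that was not itself tested.

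The efflux genes were lower in DN1eP-NKT cells. Abca1 (mm9 chr4:53043661-53172767) was at 0.58, 0.292, 0.241 and 0.378 FPKM against 9.02 to 27.9 (median 15.7) in thymic libraries. The difference was -3.63 ± 0.19 (12.4-fold lower in FPKM + 1, which understates the fold in FPKM, adjusted p = 1.8e-09). Abcg1 (mm9 chr17:31194639-31254926) was at 5.22, 6.07, 6.05 and 8.53 FPKM against 17.4 to 28.8 (median 23.8), a difference of -1.67 ± 0.15 (adjusted p = 6.51e-07). Neither gene overlapped between the groups. Of 8 tested genes of a list of LXR genes and their targets, 2 were lower (all genes 12.1%) and none higher (16.4%), with a median difference of 0.13. They were Smpdl3a, a secreted nucleotide phosphodiesterase (-2.45 ± 0.12), and Mylip, a ubiquitin ligase that degrades lipoprotein receptors (-1.52 ± 0.15).

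Fatty acid synthesis was mixed, with 4 of 8 tested genes higher and 1 lower in DN1eP-NKT cells and a median of 0.39. These counts changed with the thymic stage compared, as given below. Elovl5 (mm9 chr9:77765172-77832326), which elongates polyunsaturated fatty acids, was at 125, 163, 185 and 177 FPKM against 27.0 to 90.2 (median 41.9), without overlap (1.71 ± 0.15, adjusted p = 4.37e-07). Elovl6, which elongates saturated chains, was at 5.21 to 8.20 FPKM against 1.26 to 4.84 (0.86 ± 0.18, adjusted p = 0.00211), also without overlap. Fasn, the fatty acid synthase, was at 52.5, 53.6, 65.0 and 69.0 FPKM against 20.8 to 63.7 (median 37.7), where the groups overlapped (0.57 ± 0.16, adjusted p = 0.0136; 0.50 and 0.0573 without DN1eP-NKT library 4). Scd1, a stearoyl-CoA desaturase, was at 0.66, 4.63, 2.62 and 2.98 FPKM against 0.202 to 1.67 (0.84 ± 0.26, adjusted p = 0.0262). That call ended without DN1eP-NKT library 2, 3 or 4 or stage 1 library 1 (adjusted p = 0.137, 0.0699, 0.0847 and 0.061). Acsl3, which activates long-chain fatty acids, was lower at 2.92, 3.61, 3.74 and 4.56 FPKM against 2.70 to 10.5 (-0.70 ± 0.19, adjusted p = 0.0108). With the thymic libraries pooled into 1 group the calls of Fasn, Scd1 and Acsl3 ended (adjusted p = 0.129, 0.084 and 0.153), as did that of Ebp (0.102). Acly, which makes cytosolic acetyl-CoA (-0.01 ± 0.18), Acaca, the carboxylase that commits it to fatty acids (0.08 ± 0.19), and Scd2 (0.21 ± 0.11) were not called. Me1 was at 0.462, 0.48, 1.32 and 2.24 FPKM in DN1eP-NKT libraries and at most 0.0406 in thymic libraries of set A.

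**Figure D3:**
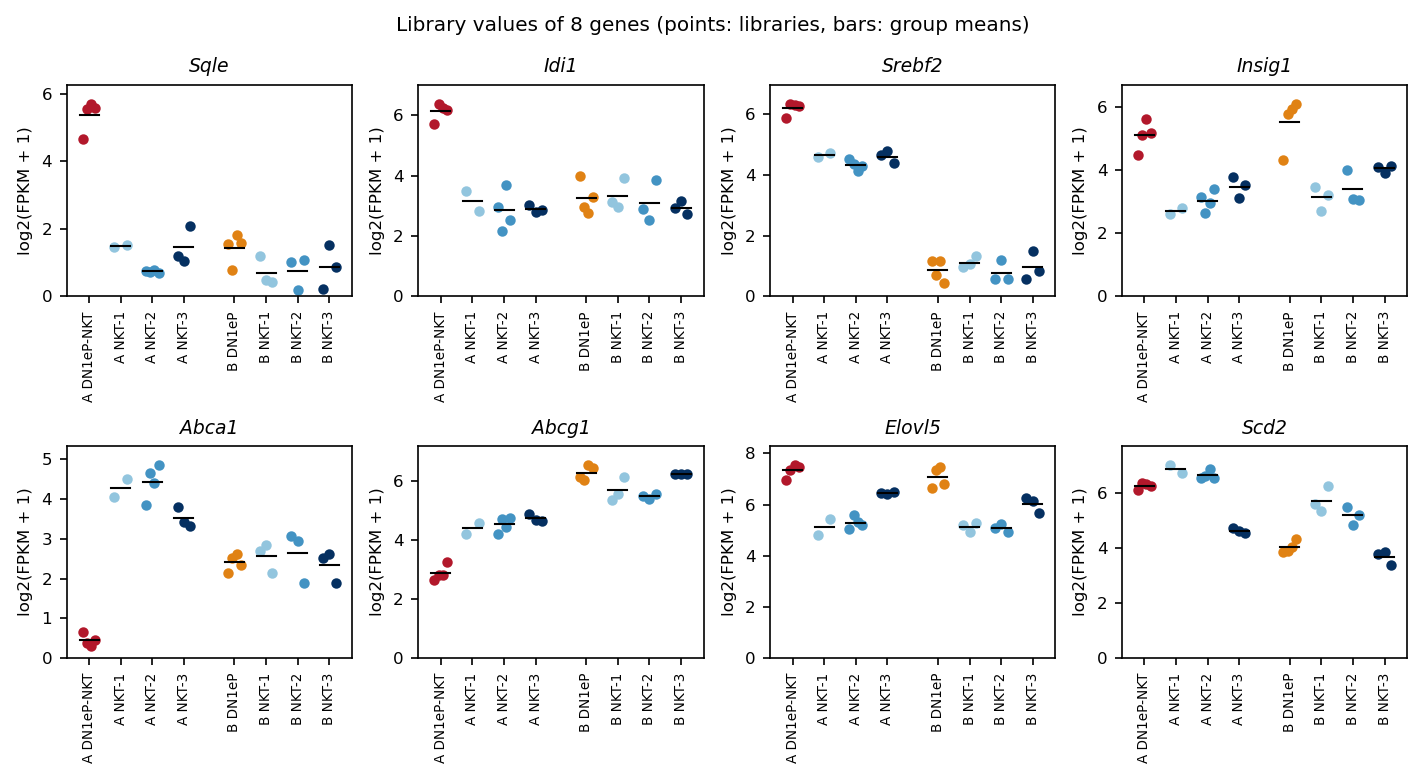
Library values of 8 genes as log2(FPKM + 1), with set A (DN1eP-NKT and thymic stages) left and set B (DN1eP and thymic stages) right in each panel; points are libraries and bars are group means. DN1eP-NKT lies above the thymic points of set A for Sqle, Idi1, Srebf2, Insig1 and Elovl5 and below them for Abca1 and Abcg1, and DN1eP lies above those of set B for Insig1 and Elovl5.

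The direction over all members did not rest on 1 thymic stage, but that of the fatty acid synthesis genes changed with stage. Against stage 1, 15 members were higher and 4 lower in DN1eP-NKT cells (all genes 10.8% and 9.7%). Against stage 2, 17 were higher and 4 lower (all genes 14.2% and 11.1%). Against stage 3, 20 were higher and 2 lower (all genes 18.9% and 12%, or 1770 higher and 1934 lower under quantile normalization). Sqle, Idi1, Fdps, Lss, Cyp51, Hsd17b7, Mvd, Mvk, Acat2, Fdft1, Nsdhl, Srebf2, Stard4, Insig1 and Elovl5 were higher and Abca1 and Abcg1 lower in each of the 3. The 8 tested fatty acid synthesis genes gave 1 higher and 2 lower against stage 1, with a median of 0.01. They gave 2 and 2 against stage 2 (median 0.19), and 4 and none against stage 3 (median 0.74). Scd2 went both ways: its 66.6, 81.0, 78.1 and 74.2 FPKM in DN1eP-NKT lay below the 91.8 to 126 FPKM of stages 1 and 2 and above the 22.2 to 25.2 FPKM of stage 3, and it was called lower against stages 1 and 2 and higher against stage 3.

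Genes of the wider pathway that are not members behaved unevenly, beside 16.4% of all genes higher and 12.1% lower. Of 5 further sterol synthesis genes tested, 4 were higher and none lower, with a median of 1.5, among them Sc4mol, the C4-methyl oxidase (2.35 ± 0.17), and Sc5d, the sterol C5 desaturase (0.70 ± 0.20). Sc4mol was at 30.8, 48.9, 50.4 and 44.6 FPKM in DN1eP-NKT and at 4.97 to 11.3 in thymic libraries. Of 13 genes of the isoprenoid branch, which leads to prenylated proteins, dolichol and coenzyme Q, none was higher and 1 was lower, Ggps1 (-0.40 ± 0.14). The sterol uptake and trafficking list had 5 higher and 3 lower of 15, including Soat2, a cholesterol esterifying enzyme (1.74 ± 0.23), and the lipoprotein receptor Lrp8 (1.42 ± 0.16) on the higher side. Of 15 further fatty acid synthesis genes that passed the filter in the thymic libraries alone, 6 were higher and 1 lower. Fads2, the delta-6 desaturase, was at 4.24, 19.1, 10.5 and 17.5 FPKM in DN1eP-NKT and at no more than 0.277 in thymic libraries, and entered the fit through DN1eP-NKT alone, so its test is not given. Fads1, the delta-5 desaturase, was higher by 1.61 ± 0.18. Of 16 genes of fatty acid oxidation 1 was higher, the long-chain dehydrogenase Acadl (1.05 ± 0.15), and 5 were lower, among them Eci1 (-1.15 ± 0.26) and Hadh (-1.04 ± 0.14), with a median of -0.27.

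Transcripts of other cells moved with DN1eP-NKT. The 14 stroma markers summed to 91.2, 323, 472 and 464 FPKM in DN1eP-NKT libraries 1 to 4 and to 0.292 to 1.35 in thymic libraries of set A. The 8 markers that entered the test did so through DN1eP-NKT alone, so their tests add nothing to these sums. Cxcl12 led at 53.5 to 191 FPKM, and Lum was at 0 in all 4. Adipocyte markers summed to 6.17, 21.7, 35.3 and 28.1 FPKM against 0.126 to 1.89, led by Fabp4 at 3.25 to 18.5, while Plin1, Cidec, Retn and Lep were at 0. Library 1, with the least stroma signal, also had the lowest Sqle, Idi1, Fdps, Cyp51, Lss and Insig1 of the 4. It had the lowest Mvk, Mvd, Fdft1, Hsd17b7, Srebf2, Elovl5, Fasn and Scd1 as well. All of these but Fasn and Scd1 still lay above all 9 thymic libraries there. Acat2, Pmvk, Nsdhl, Ebp, Stard4 and Elovl6, also called higher, did not have their lowest value there. The part of stromal RNA in the differences was not tested. Proliferation markers moved in the same direction as the sterol genes: 13 of 15 were higher in DN1eP-NKT than the thymic mean and none lower. Over all genes 16.4% were higher and 12.1% lower. The higher markers included Mki67 (1.95 ± 0.14), which marks cycling cells, and the mitotic kinase Aurkb (2.05 ± 0.24). All 15 proliferation markers summed to 1260, 1750, 1950 and 1930 FPKM in DN1eP-NKT libraries 1 to 4. In set A they summed to 1410 to 1680 in stage 1, 1270 to 1420 in stage 2 and 271 to 321 in stage 3. Their part in the differences was not tested. Sterol synthesis had a median over its 16 genes of 4.26, 5.04, 4.95 and 4.91 log2(FPKM + 1) in DN1eP-NKT and 2.67 to 3.07 in the 9 thymic libraries.

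**Figure D4:**
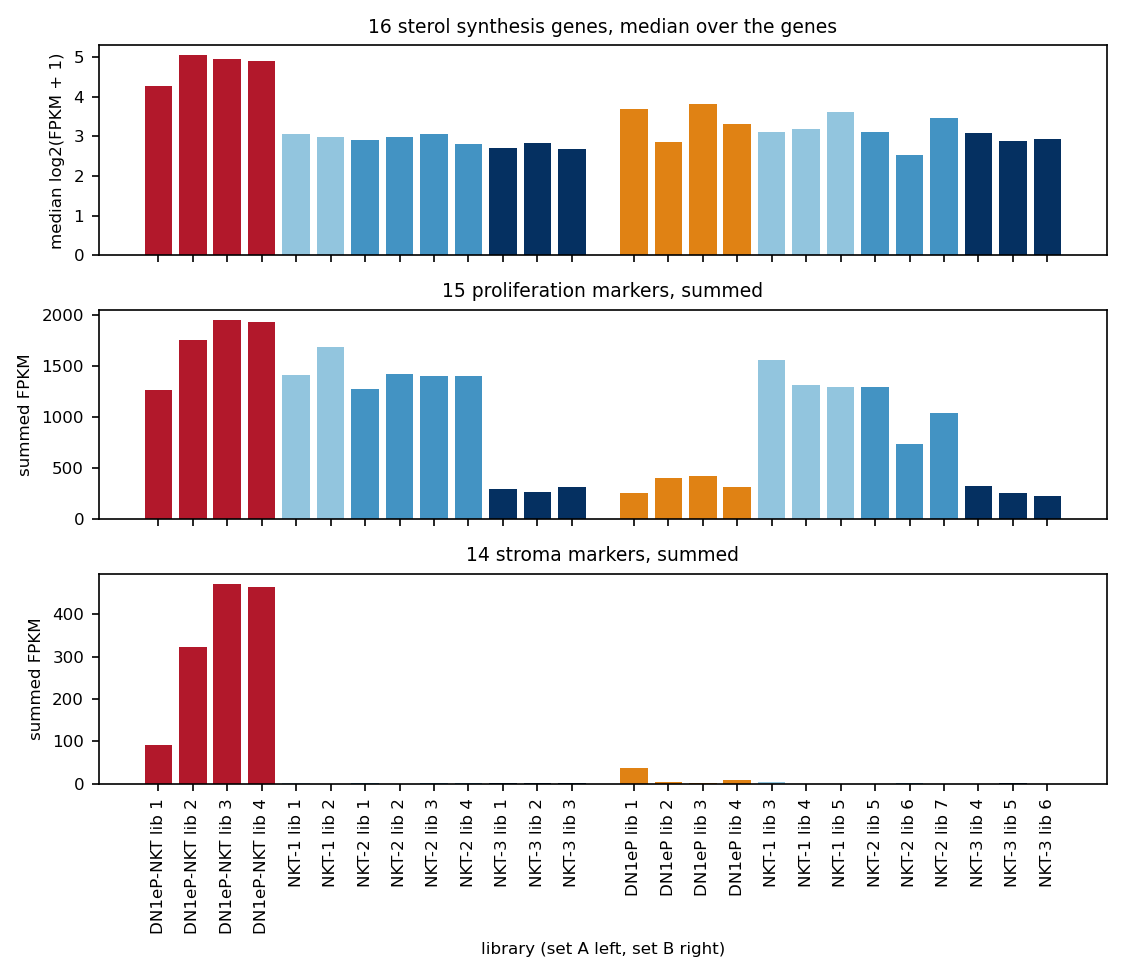
For each library, the median log2(FPKM + 1) over the 16 sterol synthesis genes (top), the summed FPKM of 15 proliferation markers (middle) and of 14 stroma markers (bottom). DN1eP-NKT bars stand at 4.26 to 5.04 in the top panel against 2.67 to 3.07 in thymic libraries of set A, and stroma markers reach 472 FPKM in DN1eP-NKT.

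In DN1eP precursors 21 of the 30 tested genes were not called against thymic NKT cells of set B. Of these 30 (Me1, Scd1 and Tm7sf2 were too low to test), 8 were higher than the mean of the thymic stages and 1 was lower, against 17.3% of 10058 genes higher and 12.4% lower. Under quantile normalization the members' split was 6 higher and 3 lower. In sterol synthesis 3 of 15 were higher and none lower, with a median of 0.22 beside 0.05 over all genes. Only Elovl5, Hsd17b7 and Insig1 lay above every thymic library, as did 4.25% of all genes, and no member lay below every one, as did 2.43%. The count of 9 fell to 5 without stage 1 library 3, to 4 with gene table version as a term and to 6 without stage 2 library 6 and stage 3 library 5, and was 13 without DN1eP library 1.

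Insig1 was at 18.8, 53.6, 59.9 and 67.0 FPKM in DN1eP libraries 1 to 4 and at 5.53 to 16.5 (median 10.1) in the 9 thymic libraries, a difference of 2.0 ± 0.29 (adjusted p = 0.000178). Elovl5 was at 98.8, 163, 178 and 111 FPKM against 29.2 to 76.2 (median 36.7), a difference of 1.65 ± 0.18 (adjusted p = 1.25e-05). These 2 held under each alternative tried. Hsd17b7 was at 3.14, 2.29, 2.62 and 3.29 FPKM against 0.245 to 1.92, a difference of 0.96 ± 0.25 (adjusted p = 0.00952), and Elovl6 at 3.56, 4.17, 4.47 and 4.97 FPKM against 1.04 to 3.94, a difference of 0.81 ± 0.23 (adjusted p = 0.0136). Both calls ended with gene table version as a term, with differences of 0.87 and 0.71 (adjusted p = 0.053 and 0.0698). That term is partly tied to group. All stage 1 libraries of set B share 1 version, and DN1eP library 4 is the only library with its version. Scd2 was lower at 13.4, 13.8, 15.1 and 18.8 FPKM, close to stage 3 of set B (9.43 to 13.3) and below stages 1 and 2 (27.6 to 73.9), a difference of -0.84 ± 0.20 (adjusted p = 0.00485). That call ended with the 9 thymic libraries pooled into 1 group (adjusted p = 0.204). Hmgcs1 was also called (1.72 ± 0.54), but 5 of the 9 thymic libraries and DN1eP library 1 have the table version that lists it at 0, and the call ended without DN1eP library 2, 3 or 4 or stage 1 library 3 (adjusted p 0.1, 0.111, 0.101 and 0.0501).

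Mvk, Acsl3 and Abcg1 were the least firm. Mvk was at 1.44, 5.63, 10.1 and 3.53 FPKM against 1.12 to 3.07 (0.93 ± 0.31, adjusted p = 0.033), with DN1eP library 1 inside the thymic range. Its call ended without DN1eP library 2 or 3, stage 1 library 3 or 4, or stage 3 library 4 (adjusted p 0.104, 0.16, 0.0514, 0.0541 and 0.0538). Acsl3 was at 0.901, 4.29, 5.45 and 4.03 FPKM against 0.0449 to 2.68 (0.90 ± 0.30, adjusted p = 0.0341). Its call ended without DN1eP library 2, 3 or 4 (0.107, 0.13 and 0.0946 as adjusted p), stage 1 library 3 or 5 (0.0537 and 0.052), stage 2 library 7 (0.0564) or stage 3 library 4 or 6 (0.0597 and 0.0595). Pooling the thymic libraries also ended the calls of Acsl3 (adjusted p = 0.11) and Abcg1 (0.127), and quantile normalization those of Mvk (0.0608) and Abcg1 (0.0558). Abcg1 was at 69.9, 65.0, 91.7 and 85.1 FPKM against 40.0 to 75.1 (0.48 ± 0.16, adjusted p = 0.0328). Its call ended without DN1eP library 3 or 4 (adjusted p 0.123 and 0.0993), stage 1 library 3 or 4 (0.061 and 0.0573) or stage 3 library 6 (0.0517). Sqle and Idi1, with the largest rises in DN1eP-NKT, and Abca1, with the largest fall, were not called here. Sqle was at 1.93, 0.715, 2.52 and 2.02 FPKM against 0.145 to 1.86 (0.66 ± 0.29). Idi1 was at 14.7, 6.83, 5.84 and 8.87 FPKM against 4.78 to 14 (0.13 ± 0.28). Abca1 was at 3.39, 4.71, 5.19 and 4.08 FPKM against 2.67 to 7.46 (-0.10 ± 0.26).

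DN1eP libraries also carried transcripts of other cells. Mast cell and basophil markers summed to 78.7, 613, 516 and 572 FPKM in DN1eP libraries 1 to 4 and to at most 8.84 in thymic libraries of set B other than stage 1 library 3 (123). Myeloid markers summed to 380, 36.4, 45.3 and 34.2 FPKM, and B cell markers to 21.2 to 48.7. Insig1, at 18.8 FPKM in library 1 and 53.6 to 67.0 in libraries 2 to 4, had its lowest DN1eP value in library 1. So did Elovl5, Elovl6, Mvk, Acsl3 and Hmgcs1 (with its table problem), also called higher, while Hsd17b7 and Abcg1 did not. Of members not called higher, Acly, Acaca, Fasn, Scd2 and Abca1 were lowest in library 1. Lss, Idi1, Acat2, Pmvk, Fdps, Ebp, Dhcr7, Insig2 and Scap had their highest DN1eP value there. Library 1 has the lowest sum of mast cell and basophil markers and the highest of myeloid markers. It also has another gene table version than libraries 2 to 4. The part of such cells was not tested. Proliferation markers summed to 259 to 422 FPKM in DN1eP, against 1290 to 1560 in stage 1, 737 to 1290 in stage 2 and 225 to 327 in stage 3 of set B. Over all genes 17.3% were higher and 12.4% lower in DN1eP than the thymic mean. In the wider lists, 1 of 4 further sterol synthesis genes was higher (Sc5d, 0.73 ± 0.17) and none lower. The isoprenoid branch had 1 higher and 3 lower of 13, sterol uptake and trafficking 1 and 1 of 14, LXR and its targets 1 and 3 of 7, further fatty acid synthesis 3 and 1 of 13 that passed the filter in thymic libraries alone, and fatty acid oxidation 3 and 3 of 15.

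Stage by stage in set B, 5 members were higher and 4 lower in DN1eP than in stage 1 (all genes 11.7% and 16.8%; members 5 and 2 under upper-quartile scaling). Against stage 2, 5 were higher and 1 lower (all genes 13.4% and 9.11%, or 1303 higher and 1342 lower under quantile normalization). Against stage 3, 5 were higher and none lower (all genes 10.6% and 2.56%, or 600 higher and 569 lower under upper-quartile scaling, with 3 members higher and none lower). The count against stage 1 was 4 or 5 without DN1eP library 2, 3 or 4 or any stage 1 library, and the count against stage 2 was 11 without DN1eP library 1. The count against stage 3 was 8 without DN1eP library 1, 2 without DN1eP library 2, 3 or 4 or stage 3 library 5, and 0 without stage 3 library 6. Insig1 and Elovl5 were higher in each of the 3.

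Because DN1eP and DN1eP-NKT never share a library set, they were compared through the thymic libraries, assuming that the shift between sets is the same for all cells. DN1eP-NKT minus DN1eP, each relative to the thymic libraries of its set, gave 16 members higher and 3 lower of 32, against 15% of 11663 genes higher and 16.6% lower. Sterol synthesis had 11 higher and none lower of 16, led by Sqle (3.48 ± 0.37, adjusted p = 1.04e-07), Idi1 (3.02 ± 0.38) and Lss (2.91 ± 0.45). Stard4 (2.26 ± 0.39) was higher, whereas Insig1, raised above thymic cells in both groups, was not called (0.02 ± 0.38). Srebf2 was also called (1.75 ± 0.26), but it was at 0.353 to 1.79 FPKM in set B, where the log2(FPKM + 1) scale compresses any change. Abca1 (-3.53 ± 0.31), Abcg1 (-2.16 ± 0.22) and Acsl3 (-1.61 ± 0.37) were lower. Abcg1 and Acsl3 are the 2 members called in opposite directions against the mean of the thymic stages, higher in DN1eP and lower in DN1eP-NKT. Neither pair of directions held against stage 3 alone. Acsl3 was at 2.92 to 4.56 FPKM in DN1eP-NKT and 2.70 to 6.01 in stage 3 of set A, and was not called lower there. Abcg1 was at 65.0 to 91.7 FPKM in DN1eP and 73.7 to 75.1 in stage 3 of set B, and was not called higher there. Elovl5, Elovl6, Hsd17b7, Insig1 and Mvk were called higher in both groups. Fdft1, higher by 1.16 ± 0.38, lost its call without DN1eP library 4 (adjusted p = 0.0737) or DN1eP-NKT library 3 (0.0516), and with gene table version as a term (0.0793). A replicate block ended the calls of Fdft1, Cyp51, Hsd17b7, Fasn and Scd1 (adjusted p = 0.0576, 0.103, 0.0971, 0.151 and 0.135). A pseudocount of 0.1 also ended that of Hsd17b7 (0.0823).

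The assumption matters for some members more than for others, since library set alone moved many of them. Among thymic libraries, set A minus set B was called higher for 12 of 32 members and lower for 5, against 52.3% of all genes higher and 20.3% lower. Upper-quartile scaling turned this to 10 higher and 14 lower and quantile normalization to 9 and 15, with the median of all genes, 0.50 as deposited, shifted by -0.38 and -0.56. Srebf2 was at 16.3 to 26.4 FPKM in set A and 0.489 to 1.79 in set B (3.58 ± 0.15), Srebf1 at 25.9 to 74.4 and 1.66 to 4.35 (3.50 ± 0.18), Scap at 21.4 to 47.2 and 1.20 to 2.79 (3.38 ± 0.16), and Fasn at 20.8 to 63.7 and 2.56 to 5.90 (3.15 ± 0.17). No thymic library of one set reached the range of the other for these 4. Ebp (-1.47 ± 0.14), Pmvk (-1.44 ± 0.18), Abcg1 (-1.25 ± 0.12), Acat2 (-1.12 ± 0.14) and Nsdhl (-0.96 ± 0.15) were lower in set A. A level of these genes therefore holds only within its set, and the SREBP and SCAP genes in DN1eP (Srebf2 at 0.353 to 1.26 FPKM) cannot be set beside those in DN1eP-NKT (58.1 to 79.9 FPKM).

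From thymic stage 1 to stage 3, Scd2 fell and Elovl5 rose in both library sets. Stage 2 minus stage 1 called no member with limma in set A (all genes 0.172% higher and 0.0453% lower) or in set B (0.109% and 0.0199%), with 1 member at an unadjusted p below 0.05 in each set. Stage 3 minus stage 1 called 1 member higher and 9 lower of 32 in set A (all genes 10.9% and 18.6%), and 1 higher and 5 lower of 30 in set B (4.4% and 17.3%). In set B the median of all genes was -0.28; upper-quartile scaling gave 779 genes higher and 888 lower with 3 members higher and 2 lower, and quantile normalization 3 and 3. Elovl5 was called higher and Scd2, Acsl3, Fdps and Dhcr7 lower in both sets. In set B the call of Dhcr7 ended under upper-quartile scaling (-0.61, adjusted p = 0.107) and quantile normalization (-0.61, adjusted p = 0.109), and that of Acsl3 under upper-quartile scaling (adjusted p = 0.0602) and without a filter (0.0711). The call of Elovl5 there ended without stage 2 library 6 and stage 3 library 5 (adjusted p = 0.0669), as did that of Dhcr7 (0.0593). Scd2, a stearoyl-CoA desaturase at a higher FPKM than Scd1 in every library, was at 126 and 104 FPKM in stage 1 and 25.2, 23.4 and 22.2 in stage 3 of set A (-2.23 ± 0.17, adjusted p = 1.31e-07), and at 47.2, 38.8 and 73.9 against 12.7, 13.3 and 9.43 in set B (-2.04 ± 0.27, adjusted p = 5.84e-05). Elovl5 was at 27.0 and 41.9 FPKM in stage 1 and 87.4, 83.2 and 90.2 in stage 3 of set A (1.34 ± 0.22), and at 35.8, 29.5 and 38.3 against 76.2, 70.2 and 50.5 in set B (0.89 ± 0.25). Stages did not overlap for either gene in either set.

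**Figure D5:**
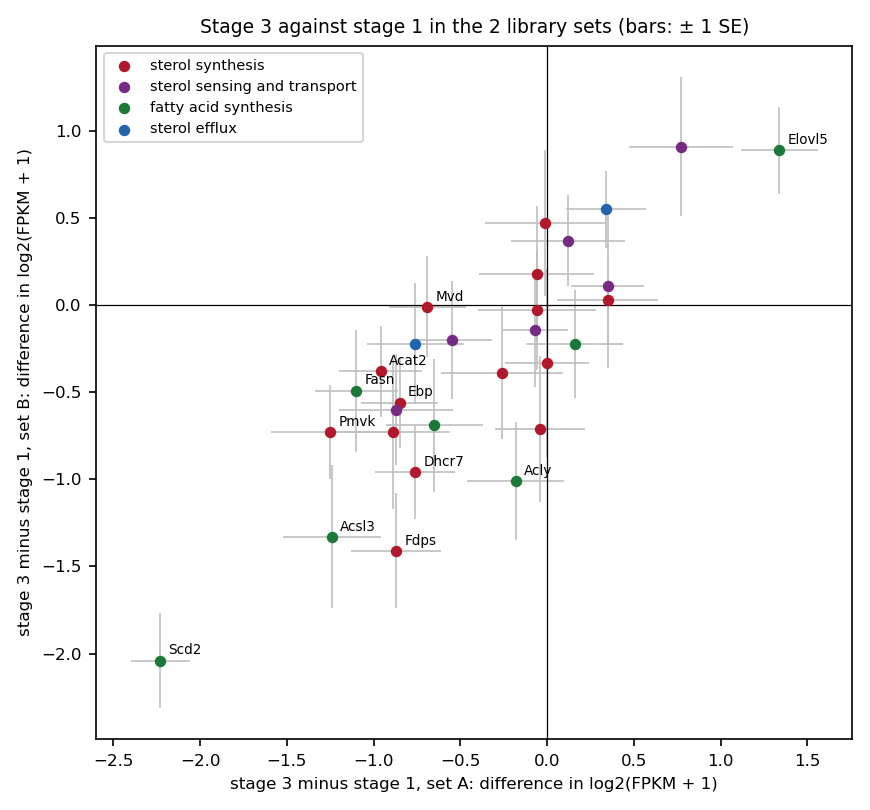
Stage 3 minus stage 1 in set A (horizontal) and in set B (vertical) for the 29 genes tested in both sets other than Hmgcs1, as differences in log2(FPKM + 1) with bars of 1 SE on each side and colours for the 4 gene classes. Genes called in either set are named; Scd2 lies at -2.23 and -2.04, and Elovl5 at 1.34 and 0.89.

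Acsl3 was at 9.35 and 10.5 FPKM in stage 1 and 6.01, 2.79 and 2.70 in stage 3 of set A (-1.24 ± 0.28), and at 2.33, 2.68 and 2.25 against 0.0449, 1.09 and 0.138 in set B (-1.33 ± 0.41, adjusted p = 0.0293). Fdps was lower by -0.87 ± 0.26 in set A and -1.41 ± 0.33 in set B, and Dhcr7 by -0.76 ± 0.23 and -0.96 ± 0.27. Pmvk, Fasn, Acat2, Ebp and Mvd were called lower in set A alone and Acly in set B alone, but the difference between the sets was called for none of 32 members with limma (0.06% of all genes higher and 0.257% lower), and none had an unadjusted p below 0.05. Sqle (-0.06 ± 0.33 and 0.18 ± 0.39) and Hsd17b7 (-0.06 ± 0.34 and -0.03 ± 0.34) were not called in either set. All 15 proliferation markers, whose sums are given above, were also called lower in stage 3 than in stage 1 in both sets. Over all genes 18.6% were lower in set A and 17.3% in set B. The part of proliferation was not tested. In set A the count of 10 fell to 6 without stage 1 library 2, when Acat2 (adjusted p = 0.108), Mvd (0.107), Fdps (0.0508) and Dhcr7 (0.232) lost their calls. Without stage 1 library 1 the calls of Pmvk (0.0921), Mvd (0.118), Fdps (0.136) and Ebp (0.0776) ended, without stage 3 library 1 those of Mvd (0.112), Fdps (0.0505) and Dhcr7 (0.0504), without stage 3 library 2 those of Fdps (0.0589) and Dhcr7 (0.0619), and without stage 3 library 3 that of Pmvk (0.0522). In set B the count of 6 fell to 3 without stage 3 library 5 or 6. There Dhcr7 lost its call without stage 1 library 5 or stage 3 library 5 or 6 (adjusted p 0.0678, 0.0754 and 0.0707), and Elovl5 without stage 1 library 4 or stage 3 library 4 or 5 (0.0712, 0.0577 and 0.0616). Acsl3 lost its call without stage 1 library 3, 4 or 5 (0.0722, 0.083 and 0.065) or stage 3 library 4 or 6 (0.0982 and 0.112). Acly, at an adjusted p of 0.0449 in set B, lost its call without any of 7 libraries.

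Stage 3 minus stage 2 called 2 members higher and 9 lower in set A (all genes 12.1% and 17.3%; members 4 and 9 under upper-quartile scaling), and 2 higher and 1 lower in set B (2.86% and 5.6%, or 429 and 464 genes under upper-quartile scaling). Scd2 was lower (-2.02 ± 0.14 and -1.50 ± 0.27) and Elovl5 higher (1.16 ± 0.19 and 0.95 ± 0.25) in both. Abca1 was lower in set A (-0.92 ± 0.23), and Abcg1 was higher in set B (0.74 ± 0.22), at 75.1, 74.3 and 73.7 FPKM in stage 3 and 41.4 to 46.6 in stage 2. The count in set A was 7 without stage 3 library 3, and the count in set B was 1 without stage 2 library 5 or 7 or stage 3 library 4 or 5.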

How the data were processed

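The deposited values are FPKM per gene, 1 table per library, made by the authors from reads aligned to mm9 with TopHat2 2.0.6 and Cufflinks 2.1.1, per the submitters' processing notes. Read depth is unknown. For genes at 20 to 100 FPKM the deposited confidence interval spanned 5.53% to 23.8% on each side by library; it was narrower in library 1 of DN1eP (6.24%) and of DN1eP-NKT (7.01%) than in their libraries 2 to 4 (15.9% to 23.8%). FPKM of rows with the same symbol were added up. Left out were 86 symbols that a file lacked and 13 whose estimate had failed.

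Tests took genes that reached 1 FPKM in 4 or more libraries of a fit, on log2(FPKM + 1), which understates the change of low genes, with limma 3.58.1 in R 4.3.3 (trend and robust eBayes, 1 coefficient per group and set). Benjamini-Hochberg adjustment covered every gene in the fit, and calls are at an adjusted p below 0.05. Sets A and B were fitted apart, and a fit of all 26 libraries served the comparisons across sets. Library sets were told apart by the median FPKM of expressed genes, with a limit of 11, found from the data.

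The members, lists, comparisons and alternatives were chosen with earlier results of these data known. Library values are given for called members with the largest change in each class, for members called in opposite directions, and for up to 3 called genes per pathway list; others named were chosen after their values were seen. A few listed genes are not reported here. Alternatives tried were 2 scalings, array weights, a smaller pseudocount (0.1), a filter at 5 FPKM or none, and a replicate block. Others were the highest row per symbol, pooled thymic libraries, 1 fit of 26 libraries, and each library left out. Gene table version as a term was added after seeing the data. So was a fit without library 1 of DN1eP-NKT, stage 1 and stage 2 in set A. That fit left stage 1 with library 2 alone, so its count of calls is not given. Data were also simulated with independent normal noise and 200 changed genes, drawn from genes with a mean of 5 FPKM or more. There 2-fold changes were recovered at 83% (DN1eP-NKT, set A), 65% (DN1eP, set B) and 33% (difference of the 2). For 4-fold changes the rates were 100%, 99% and 93%. These rates do not cover genes below that level, such as Sqle and Srebf2 in set B.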

Additional observations from a re-analysis of the deposited data

Results flagged for a closer look

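Of 98 gene and group pairs of 4 libraries, 13 had 1 library far from the other 3, where chance gives about 1 in 20. In DN1eP-NKT, library 1 was low for 4 genes: Fdps at 87.9 FPKM (others 174 to 187), Sqle at 24.3 (45.7 to 50.9), Cyp51 at 27.0 (51.1 to 55.2) and Srebf2 at 58.1 (75.9 to 79.9). Library 1 also has the lowest sum of stroma markers, 91.2 FPKM against 323 to 472, and another gene table version than libraries 2 to 4. Hmgcs1 was at 0 in that library (others 37.0 to 57.8), with the table version that lists it at 0 throughout. Tm7sf2 was at 0 in DN1eP-NKT library 4 (2.54 to 3.09), and Ebp was high in library 2 at 43.9 (33.6 to 34.0).

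In stage 2 of set A, Acat2 was high in library 4 at 18.4 FPKM (others 11.9 to 12.1), Fdft1 in library 2 at 11.1 (6.67 to 7.25), and Insig2 and Scd2 in library 3 at 18.5 (6.57 to 7.83) and 116 (91.8 to 95.1). In DN1eP, Insig2 was high in library 1 at 15.8 (10.7 to 11.4), and Me1 was at 0.298 in library 2 and listed at 0 in the others.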

How the results depend on the processing

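No called member changed sign under the alternatives run against the thymic mean, in DN1eP-NKT minus DN1eP or in stage 3 minus stage 1. The balance of calls did turn with scaling in set A minus set B, from 12 higher and 5 lower to 10 and 14 (upper quartile) or 9 and 15 (quantile), and in stage 3 minus stage 1 of set B, from 1 and 5 to 3 and 2 or 3 and 3. The 23 members called in DN1eP-NKT against thymic cells numbered 19 to 24 under the alternatives and 21 to 24 with 1 library left out. The 9 called in DN1eP numbered 4 under a filter of 5 FPKM, 4 with gene table version as a term, and 5 to 13 with 1 library left out. Against stage 1 the 9 numbered 4 without a filter, 5 without stage 2 library 6 and stage 3 library 5, and 4 to 10 with 1 library left out, and against stage 2 the 6 numbered 4 to 11 so. Against stage 3 the 5 numbered 2 without a filter, 3 under upper-quartile scaling, 3 under quantile normalization, 9 with array weights, 2 without that pair of libraries, and 0 to 8 with 1 left out. Stage 3 minus stage 2 in set B (3) gave 1 without a filter, 1 without that pair, and 1 to 3 with 1 left out; stage 3 minus stage 1 in set B (6) gave 10 with array weights, 3 without that pair, and 3 to 7. With 1 left out, DN1eP-NKT minus DN1eP gave 18 to 21, set A minus set B 17 to 22, DN1eP-NKT minus stages 1, 2 and 3 17 to 21, 19 to 22 and 22 to 24, stage 3 minus 2 and minus 1 in set A 7 to 14 and 6 to 15, and stage 2 minus 1 gave 0 in both sets. The causes were not tested, other than that a left-out library leaves fewer samples.

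Replicate numbers did not pair the samples throughout. Deviations of same-numbered libraries correlated at -0.166 to 0.528 in set A and -0.362 to 0.0394 in set B. The exception was library 1 of DN1eP-NKT, stage 1 and stage 2 in set A. Their deviations correlated with each other more than any other pair of that set did, at up to 0.528. These libraries have the same gene table version and narrower confidence intervals than the others of their groups. Stage 3 library 1 has another version and correlated negatively with each of them. The source of this shared deviation was not tested. With a replicate block DN1eP gave 5 calls against the thymic mean, 3 against stage 2 and 3 against stage 3; in set B stage 3 minus stage 2 gave 1 and minus stage 1 gave 2. In DN1eP the block ended the calls of Scd2 (-0.54, adjusted p = 0.275), Hsd17b7 (0.253), Elovl6 (0.0732), Mvk (0.0516), Acsl3 (0.065) and Abcg1 (0.0567), and in stage 3 minus stage 1 of set B those of Fdps (-0.87, adjusted p = 0.0628), Dhcr7 (0.108), Acly (0.215) and Acsl3 (0.0674). Set A counts under the block were within 1.5 times those without it.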
